A study of Danio rerio with 6 samples.

Results

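A set of 7 miRNAs best known from the liver, gut, pancreas and skin was examined in zebrafish hearts: dre-miR-122, dre-miR-192, dre-miR-216a, dre-miR-217, dre-miR-203a, dre-miR-203b and dre-miR-184 (written below without the species prefix). They were chosen by probe name and make up 7 of the 218 zebrafish miRNA probes on the array. Hearts came from adult Ekkwill fish, and each sample was a pool. One group was uninjured (3 samples, labelled 0 hours after amputation), and the other was regenerating, collected 6 hours after surgical resection of heart tissue under anaesthesia (3 samples). The sources used here state no transgene or drug treatment and give no number of hearts per pool. Each group holds 2 samples stained with Cy3 and 1 stained with Cy5. The design calls the replicates biological, so the spread given here is between pools.

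A miRNA guides the Argonaute complex to messenger RNAs that pair with its seed, the bases near its 5′ end, and lowers their output. Several miRNAs are so concentrated in a single organ that they serve as markers of it. miR-122 is the main miRNA of hepatocytes. miR-192 is a miRNA of gut, liver and kidney epithelium and shares a transcript with miR-194. miR-216a and miR-217 belong to the exocrine pancreas. miR-203 promotes differentiation in skin, where in mice it represses the stem cell factor p63. miR-184 is known from the lens and the corneal epithelium.

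The targets of the 7 probes are printed to show how far the array can separate them, since a probe reads whatever binds to it. The sequences are those of the array's own target column, 5′ to 3′, with the seed (bases 2 to 8) in capitals.
miR-122: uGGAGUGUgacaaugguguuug
miR-192: aUGACCUAugaauugacagcc
miR-216a: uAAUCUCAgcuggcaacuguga
miR-217: uACUGCAUcaggaacugauugg
miR-203a: gUGAAAUGuuuaggaccacuug
miR-203b: gUGAAAUGuucaggaccacuug
miR-184: uGGACGGAgaacugauaagggc

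The 7 targets carry 6 seeds, and only miR-203a and miR-203b share one. Both differ from each other by a single base, U11C (miR-203a first, counted from 1 at the 5′ end), so their probes may read each other's RNA in part. Apart from that pair, the members lie 9 to 15 edits from each other. miR-216a lies 2 edits from miR-216b, another probe on the array. The differences are A8U and U11A with miR-216a first, and the first of them changes the seed. The nearest probes to miR-122, miR-192, miR-217 and miR-184 were 7 or 8 edits away. All 7 names matched a gene in the GRCz12tu annotation. There the miR-192 gene has that of miR-194a as its direct neighbour, and the miR-216a gene lies between those of miR-217 and miR-216b. miR-184 has 2 genes.

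The arrays differed in background, which matters for dim probes. Signal here means the mean of a probe's 12 spots less the local background, and detection required a signal above 3 SDs of the empty spots. By this rule 110 to 144 of the 218 probes were detected in 5 of the samples and 217 in regenerating replicate 1. In that sample the median of the 27 mismatched calibration probes, which have no intended target, was a signal of 41.9, itself above the detection limit of 37.2. Detection there therefore carries little information. The heart label fitted its markers: miR-1, miR-133a, miR-133b and miR-499 were detected in all 6 samples, at 238 or more SDs of the empty spots on every array. The fifth muscle probe on the array, that of the skeletal muscle miRNA miR-206, was detected in 5 samples, at 2.69 SDs in the lowest. It read higher in every regenerating sample than in any uninjured one, and highest in regenerating replicate 1. In the comparison described below its log2 change was 2.47 (limma adjusted p = 0.115). Markers of other cells were mixed. Detection in all 6 samples was reached by 1 of 2 red blood cell probes (miR-451), 2 of 6 leukocyte probes (miR-223 and miR-150) and 1 of 6 brain probes (miR-128).

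Most of the 7 miRNAs read close to background. miR-203b alone was detected in all 6 samples, at 3.19 to 10.6 SDs of the empty spots. miR-122, miR-216a, miR-217 and miR-184 were each detected in all 3 uninjured samples but in only 1 of 3 regenerating ones, regenerating replicate 1. miR-192 was detected in 3 samples, and miR-203a in regenerating replicate 1 only. Uninjured replicates 1, 2 and 3 had 5, 5 and 6 of the 7 members detected. Regenerating replicates 1, 2 and 3 had 7, 2 and 1. Over all miRNA probes, 66.1%, 60.6% and 64.7% were detected in uninjured replicates 1, 2 and 3. In regenerating replicates 1, 2 and 3 it was 99.5%, 50.5% and 56.9%, so detection over all probes was also lowest in regenerating replicates 2 and 3.

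A second limit was set 3 median absolute deviations above the median of the mismatched calibration probes. It lay above the first on every array except uninjured replicate 2, where it was 10.5 against 10.8. Of the 42 readings (7 members in 6 samples), 26 were above the first limit and 14 above the second. Under the second limit 2, 5 and 0 of the 7 members were above background in uninjured replicates 1, 2 and 3. In regenerating replicates 1, 2 and 3 the numbers were 6, 0 and 1. Of all 218 probes, 122, 134 and 117 were above the second limit in uninjured replicates 1, 2 and 3. The regenerating replicates had 134, 105 and 116. None of the 7 was above this limit in all 6 samples, and miR-203a was above it in none. The 80 probes that did not enter the comparison, miR-203a among them, were left out for low detection in these same samples. Their readings are low in part through that filter and are no independent measure of background. Their median signal was 0.541 to 2.10 SDs in the uninjured samples, 3.93 in regenerating replicate 1, and 1.54 and 0.886 in regenerating replicates 2 and 3.

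**Figure D1:**
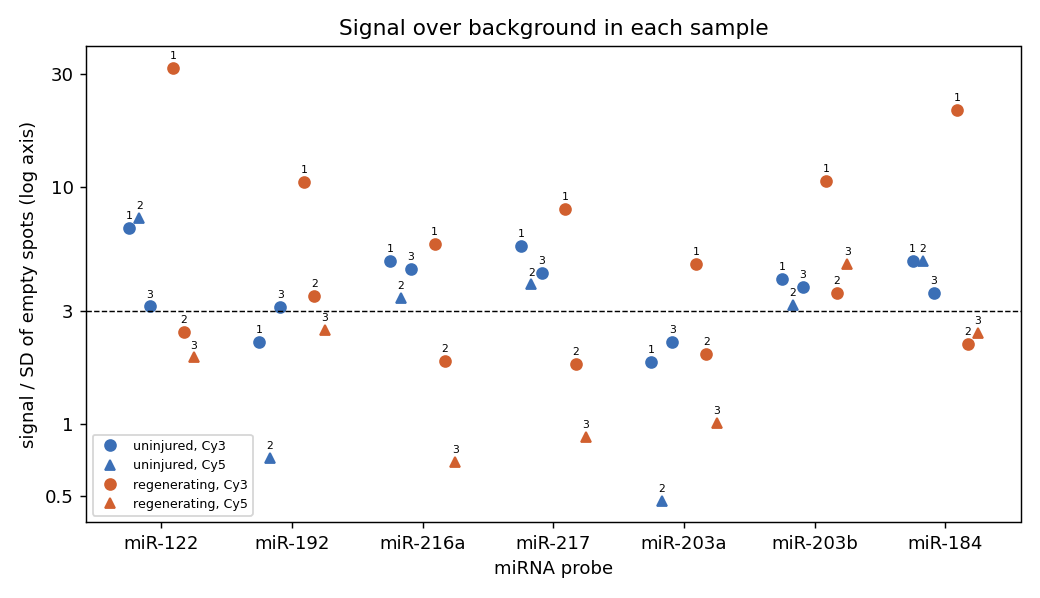
Signal of the 7 probes in each sample, as a multiple of the SD of that array's empty spots (log axis), with the detection limit of 3 as a dashed line. Blue marks uninjured and orange regenerating samples, circles Cy3 and triangles Cy5, and the digits are replicate numbers. Regenerating replicate 1 is the highest point for every probe, at 31.9 for miR-122 and 21.2 for miR-184.

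Between the groups, none of the 6 members with enough detected samples to be tested passed the threshold. These 6 were detected in at least 3 of the 6 samples, a filter that itself depends on how bright a probe was in either group. The level used here is the quantile-normalized log2 intensity, a scale that ran from 6.45 to 15.38 with a median of 7.37 over all probes. In limma, with a term for dye and Benjamini-Hochberg adjustment over all 138 tested probes, 0 of 6 members had an adjusted p below 0.05, where 3.62% of all tested probes did. At an unadjusted p below 0.05 there were 2 of 6, miR-192 and miR-203b, where 20.3% of all tested probes stood. The groups did not overlap for 3 of 6 members, 2 of them higher in the regenerating samples (9.42% of all tested probes) and 1 lower (14.5%), together 23.9% of all tested probes. The median log2 change was 0.38 over the 6 members and -0.05 over all 138 probes. Such counts over 6 probes are a description of these samples. In pooled hearts, fewer cells of a type and less RNA per cell cannot be told apart.

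**Figure D2:**
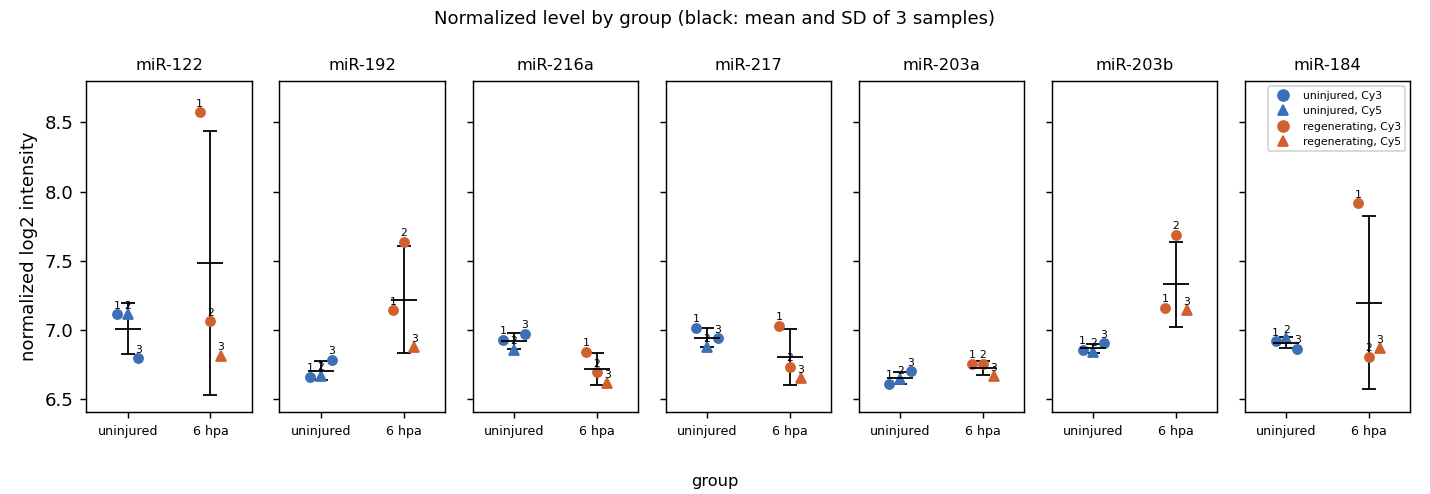
Normalized log2 intensity of each probe in the 3 uninjured and 3 regenerating (6 hpa, hours post amputation) samples, with black bars for the mean and SD. Points are marked by dye and replicate number as in the plot of signal over background. miR-122 and miR-184 have a single high sample, at 8.57 and 7.92, while miR-192 and miR-203b have all 3 regenerating samples above the uninjured ones.

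The liver miRNA miR-122 was high in a single regenerating sample. Its normalized log2 intensity was 7.11, 7.11 and 6.79 in uninjured replicates 1, 2 and 3. In regenerating replicates 1, 2 and 3 it was 8.57, 7.06 and 6.81. Regenerating replicate 1 thus lay above all others, while the remaining 2 regenerating samples lay within the uninjured range. The signal in that sample was 396, with the 12 spots between 320.1 and 452, and all 12 were above the detection limit of 37.2. In regenerating replicate 2 only 2 of 12 spots passed the limit, and in replicate 3 only 1.

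As groups, miR-122 stood at 7.48 ± 0.95 in the regenerating and 7.01 ± 0.18 in the uninjured samples (SD, n = 3 each). The log2 change was 0.48 (SE 0.46, 95% interval -0.65 to 1.60, limma adjusted p = 0.610). Without regenerating replicate 1 it was -0.06. Within the Cy3 samples (2 a group) the difference was 0.86, and between the single Cy5 samples it was -0.30, the opposite sign. The authors' processed intensities show the same single sample: 43.9, 48.9 and 36.0 in the uninjured replicates against 236, 55.8 and 23.7 in regenerating replicates 1, 2 and 3. The part of that array's raised detection in this reading was not tested.

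miR-184, of the lens and surface epithelium, followed the same pattern. Its normalized log2 intensity was 6.92, 6.94 and 6.86 in the uninjured replicates, and 7.92, 6.80 and 6.87 in regenerating replicates 1, 2 and 3. Only regenerating replicate 1 left the narrow uninjured range upwards. The signal there was 263, with spots between 222 and 307, all 12 above the limit. Only 4 and 3 of 12 spots passed in regenerating replicates 2 and 3. The group means were 7.20 ± 0.62 and 6.90 ± 0.040 (SD, n = 3 each), with a log2 change of 0.29 (SE 0.31, 95% interval -0.48 to 1.07, limma adjusted p = 0.654). It was -0.08 without regenerating replicate 1. Over the 6 samples the levels of miR-122 and miR-184 correlated at r = 0.98, and over the 5 samples without regenerating replicate 1 at r = 0.36. These values share arrays and scaling and are a description only.

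The gut and kidney miRNA miR-192 read slightly higher in all 3 regenerating samples. Its normalized log2 intensity was 6.66, 6.67 and 6.78 in the uninjured replicates, and 7.14, 7.64 and 6.87 in regenerating replicates 1, 2 and 3. The lowest regenerating sample lay just above the highest uninjured one. The group means were 7.22 ± 0.39 and 6.70 ± 0.068 (SD, n = 3 each). The log2 change was 0.52 (SE 0.19, 95% interval 0.04 to 0.99, limma adjusted p = 0.220). The difference was 0.67 within the Cy3 samples and 0.21 between the Cy5 samples. The reading was close to background: 3, 0 and 8 of 12 spots passed the limit in uninjured replicates 1, 2 and 3. The regenerating replicates had 12, 9 and 5. miR-192 was detected in 1 uninjured and 2 regenerating samples, so it entered the test mainly through the group where it read higher. One of these was regenerating replicate 1, where 217 probes were detected. Only in that sample was miR-192 above the limit set by the mismatched probes.

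In the authors' processed intensities miR-192 read 24.8, 11.8 and 25.9 in the uninjured replicates and 62.1, 56.3 and 23.5 in regenerating replicates 1, 2 and 3. Here the groups overlapped, since regenerating replicate 3 read below uninjured replicates 1 and 3. The Cy5 sample was the lowest of each group. The log2 difference was 1.22 within Cy3 and 1.00 between the Cy5 samples. With the dye term the log2 change of 1.15 passed (limma adjusted p = 0.0218, where 2.90% of all tested probes were called higher). Without the dye term the same change did not pass (limma adjusted p = 0.232). miR-194a, whose gene neighbours that of miR-192, was detected in 2 samples and was not tested in the main comparison. With all 218 probes tested, miR-194a stood at a log2 change of 0.16 (limma adjusted p = 0.641) with groups that did not overlap, and miR-194b at 0.05 (limma adjusted p = 0.852).

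The pancreatic pair miR-216a and miR-217 leaned the other way by small amounts. The normalized log2 intensity of miR-216a was 6.93, 6.85 and 6.97 in the uninjured replicates and 6.84, 6.69 and 6.61 in the regenerating ones. The groups did not overlap, by a margin that rounds to 0.01. The group means were 6.71 ± 0.12 and 6.92 ± 0.059 (SD, n = 3 each), with a log2 change of -0.20 (SE 0.12, 95% interval -0.50 to 0.10, limma adjusted p = 0.462). miR-217 read 7.01, 6.87 and 6.94 in the uninjured replicates and 7.03, 6.73 and 6.65 in the regenerating ones. Regenerating replicate 1 was its highest sample and the remaining regenerating samples were its lowest, so the groups overlapped. Its log2 change was -0.14 (SE 0.14, 95% interval -0.48 to 0.21, limma adjusted p = 0.616). With 1 sample left out it ran from -0.07 (without regenerating replicate 2) to -0.23 (without regenerating replicate 1).

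Spot counts for this pair are a description only, since both probes entered the test mainly through the uninjured samples, where their means were higher. Each was detected in 3 uninjured samples and in 1 regenerating sample, as were miR-122 and miR-184. Detection over all probes was also lower in regenerating replicates 2 and 3 (50.5% and 56.9%) than in the uninjured samples (60.6% to 66.1%). For miR-216a, 12, 8 and 12 of 12 spots passed the limit in uninjured replicates 1, 2 and 3. The regenerating replicates had 12, 4 and 0. For miR-217 the numbers were 12, 10 and 10 against 12, 0 and 1. The detection limit itself was highest in regenerating replicate 2, at a signal of 142 against 10.8 to 37.2 in the uninjured samples and regenerating replicates 1 and 3. There the miR-216a signal of 87.6, before scaling, was below the limit but above the 12.2 to 46.4 of the uninjured samples. The levels of miR-216a and miR-217 correlated at r = 0.87 over the 6 samples and at r = 0.96 over the 5 that leave out regenerating replicate 1. In the authors' processed intensities the log2 changes were -0.05 for miR-216a and 0.02 for miR-217, and neither passed (limma adjusted p = 0.960 and 0.986).

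The remaining pancreatic probes were dimmer. miR-216b, whose gene lies beside that of miR-216a, was detected in 2 samples, and so was miR-375, a miRNA of the endocrine pancreas. With all 218 probes tested, their log2 changes were -0.09 and 0.01 (limma adjusted p = 0.672 and 0.988).

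Of the skin miRNAs, miR-203b read higher in all 3 regenerating samples and miR-203a could not be measured. The normalized log2 intensity of miR-203b was 6.85, 6.84 and 6.90 in the uninjured replicates and 7.16, 7.69 and 7.14 in regenerating replicates 1, 2 and 3. All regenerating samples lay above the narrow uninjured range, but the readings were close to background. In uninjured replicates 1, 2 and 3, 11, 7 and 8 of 12 spots passed the limit. The regenerating ones had 12, 8 and 10. The limit set by the mismatched probes was passed only in uninjured replicate 2 and regenerating replicates 1 and 3. In regenerating replicate 2, the highest sample, the signal of 170 lay below that limit of 176. The group means were 7.33 ± 0.31 and 6.87 ± 0.033 (SD, n = 3 each), with a log2 change of 0.46 (SE 0.18, 95% interval 0.02 to 0.91, limma adjusted p = 0.238). The difference was 0.54 within the Cy3 samples and 0.30 between the Cy5 samples. It ran from 0.32 to 0.58 with any 1 sample left out and did not pass in these fits.

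In the authors' processed intensities miR-203b read 31.6, 26.9 and 33.9 in the uninjured replicates and 62.7, 63.7 and 46.2 in the regenerating ones, again without overlap. There the log2 change of 0.89 passed with the dye term (limma adjusted p = 0.0429) and without it (limma adjusted p = 0.0498). In each of these 2 fits 2.90% of all tested probes were called higher. The levels of miR-203b and miR-192 correlated at r = 0.98 over the 6 samples. Both read close to background and share arrays and scaling, so this value is a description only.

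miR-203a, 1 base away from miR-203b, was not well above background in the uninjured samples. Its signal was 10.5, 1.71 and 22.9 in uninjured replicates 1, 2 and 3, against limits of 17.1, 10.8 and 30.9. In regenerating replicates 1, 2 and 3 it was 59.1, 94.2 and 5.82, against limits of 37.2, 142 and 17.2. Only regenerating replicate 1 passed, so no fold is given. Further skin probes were dim: miR-205, another miRNA of stratified epithelium, was detected in 2 samples, and miR-203b*, the opposite arm of the miR-203b hairpin, in 1. With all 218 probes tested, the log2 change of miR-205 was 0.29 (limma adjusted p = 0.311) with groups that did not overlap. That of miR-203b* was 0.09 (limma adjusted p = 0.694). Other surface epithelium markers, of the miR-200 family, stood below 0 with quantile normalization, and their difference from miR-203b was not tested. The 75th percentile scaling turned this sign for all 5, to between 0.22 and 1.21. Taken over the probes detected on all arrays it did so for all but miR-200b (-0.11), and calibration spot scaling did so for miR-429 (0.02). miR-200b, miR-200c and miR-141 were detected in all 6 samples, and miR-200a and miR-429 in 5. With quantile normalization only miR-200b of these 5 passed, at a log2 change of -0.81 (limma adjusted p = 0.0352). The others stood at -0.68 (miR-200c), -0.42 (miR-200a), -0.28 (miR-141) and -0.25 (miR-429). miR-200b also passed with median scaling (-1.03, limma adjusted p = 0.0451) and with the authors' processed values (-1.18, limma adjusted p = 0.0239). In the authors' values all 5 were below 0. miR-200b did not pass with calibration spot scaling (limma adjusted p = 0.162). With 75th percentile scaling it did not pass either (limma adjusted p = 0.660, or 0.862 over the probes detected on all arrays).

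Across the wider list of liver, gut, pancreas and skin miRNAs, 13 of 14 listed names were on the array: the 7 members and 6 further probes. None of the further probes was detected in enough samples to be tested. Those 6 probes, miR-194a, miR-194b, miR-216b, miR-375, miR-203b* and miR-205, had log2 changes from -0.09 to 0.29 with all 218 probes tested, and 0 of them passed in limma, where 2.29% of all 218 did. At an unadjusted p below 0.05 there was 1, miR-205, where 13.8% of all 218 stood. The groups did not overlap for 3 of the 6 (miR-194a and miR-205 higher, miR-216b lower), where 18.3% of all 218 probes had such groups. These readings were close to background. Only miR-194a and miR-205 passed the limit set by the mismatched probes, in 1 sample each, and the others passed it in 0.

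**Figure D3:**
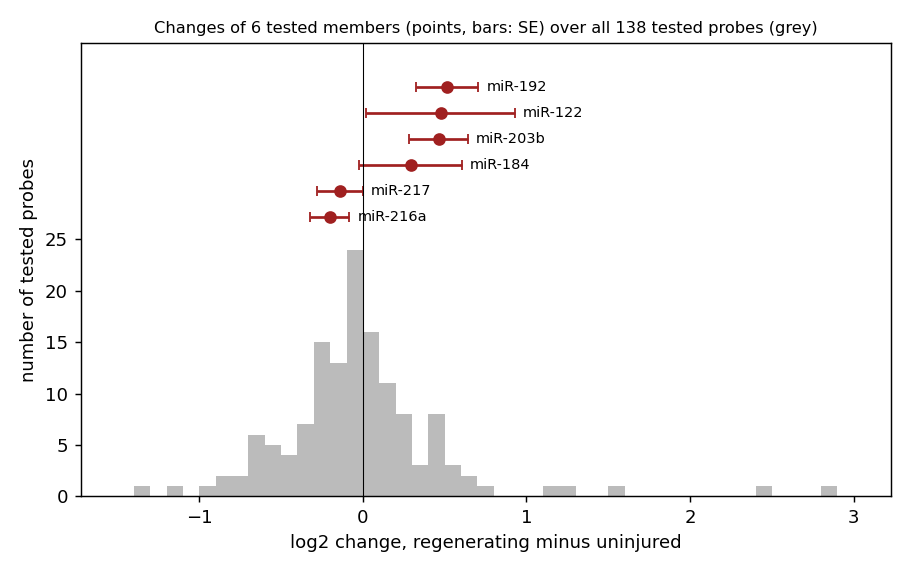
Log2 change (regenerating minus uninjured) of the 6 tested members as points with SE bars, placed above a histogram of the log2 changes of all 138 tested probes in grey (count of probes on the vertical axis). The members lie between -0.20 for miR-216a and 0.52 for miR-192, inside the spread of all probes.

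Whether any member passed depended on the scaling, as well as on the use of the authors' processed values described above. When each array was scaled to its 75th percentile, 4 of 6 members passed: miR-122 at a log2 change of 1.92, miR-192 at 1.95, miR-203b at 1.86 and miR-184 at 1.84 (6.52% of all tested probes were called higher). The limma adjusted p-values were 0.00960, 0.0489, 0.0489 and 0.00816. miR-216a and miR-217 turned to 1.37 and 1.44 and did not pass. The median of all 138 probes moved to 0.46 in that fit, and relative to it the 6 members stood at 0.91 to 1.48.

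The empty spots, which hold no probe for a miRNA, moved with this scaling too. Processed the same way, their mean log2 value was 1.36 higher in the regenerating samples under 75th percentile scaling, and the median of the mismatched calibration probes was 1.50 higher. The 6 members, at 1.37 to 1.95, thus exceeded the empty spots by 0.01 (miR-216a) to 0.59 (miR-192). Scaling to the median or to calibration spots put the empty spots at 0.11 and 0.17 and called none of the members. With these, 29 and 22 of all 138 tested probes were called, 26 and 20 of them lower. The median log2 change of all 138 was -0.79 and -0.73. These scalings shift an array by 1 factor, so the excess over the empty spots is the same in each by construction. In all 3 of these fits the 6 members stood above 0, whereas miR-216a and miR-217 were below 0 with quantile normalization.

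**Figure D4:**
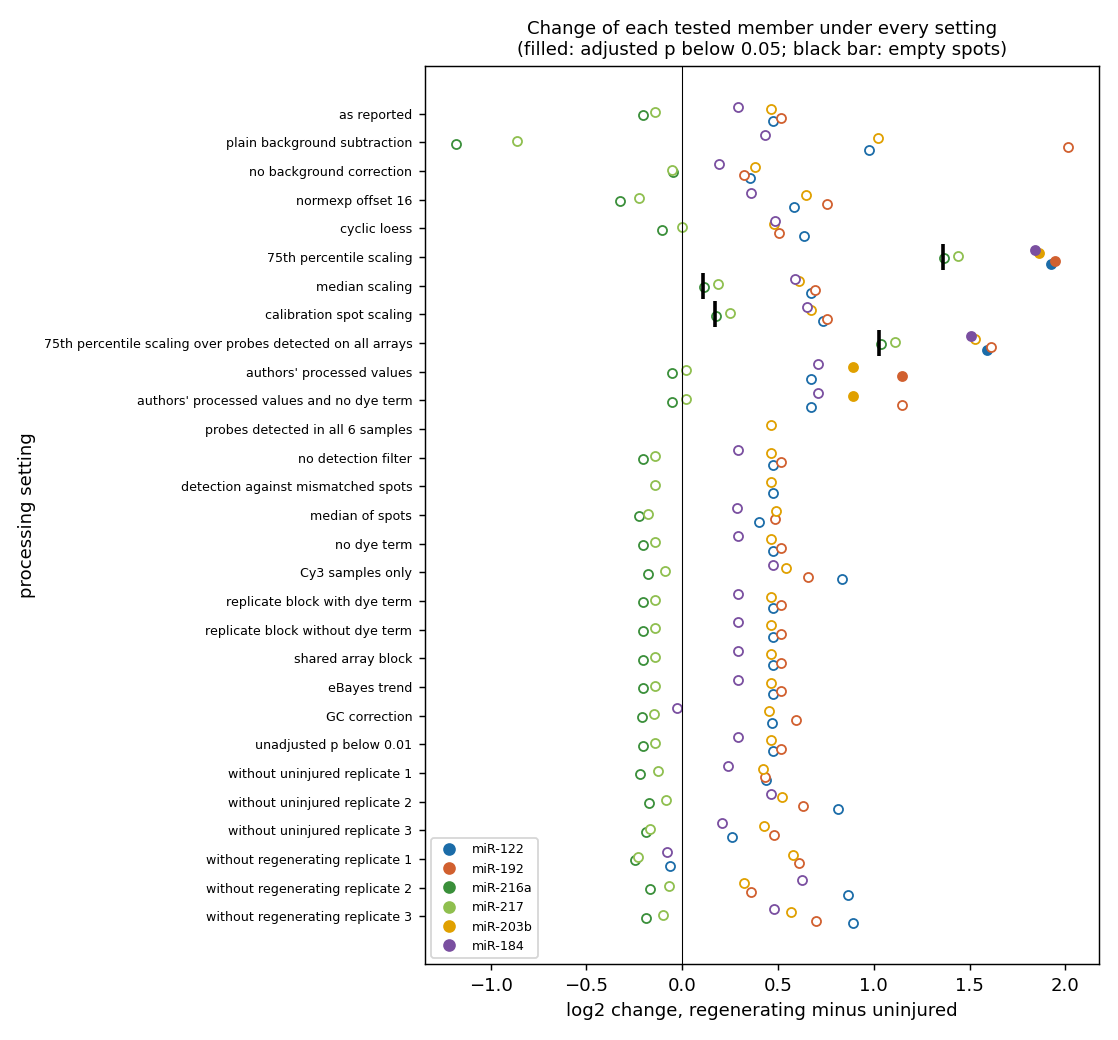
Log2 change of each tested member (horizontal axis) under every processing setting (vertical axis), filled where the adjusted p was below 0.05 in limma. Black bars give the change of the empty spots for the settings that scale an array by 1 factor. The filled points lie in the 75th percentile fits, where the empty spots stood at 1.36 and 1.03, and in the fits of the authors' processed values.

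The probes with levels most like each member are listed as a description. The tested probes outside the set whose levels were most like each member were found by Pearson r over the 6 samples, which share arrays, dyes and scaling. For miR-122 and miR-184 the closest was the skeletal muscle miRNA miR-206, at r = 0.83 and 0.80. Without regenerating replicate 1 these became 0.02 and -0.71. Next for miR-122 came miR-733 and miR-146b, at r = 0.77 and 0.76, and 0.67 and 0.65 without that sample. For miR-184 the same probes followed, at r = 0.72 and 0.68, and 0.60 and 0.16 without that sample. For miR-192 the closest was miR-735 (r = 0.91), followed by miR-145 and miR-221 (r = 0.90 and 0.88). For miR-203b it was miR-221 (r = 0.94), followed by miR-145 and miR-25 (r = 0.92 and 0.91). miR-216a was closest to miR-27b (r = 0.95), miR-218b (0.93) and miR-27a (0.92), and miR-217 to miR-218a (0.94), miR-218b (0.92) and the heart miRNA miR-1 (0.89). For the same picked probes, the values for miR-192, miR-203b, miR-216a and miR-217 lay between 0.85 and 0.99 without regenerating replicate 1. These reuse samples on which the probes were picked and are no independent check.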

How the data were processed

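The authors deposited the mean intensity of each spot (linear, with no sign of background subtraction), per the file headers. Per the labels' protocols, a service provider used 4 µg total RNA, took the RNA below 300 nt, added a poly(A) tail and a tag, and used Cy3 or Cy5 stain. A second deposited table holds the authors' processed intensities (column medians 68.9 to 91.9, linear); the sources used here do not give its background subtraction or scaling. Its log2 values correlated at r of 0.991 to 0.993 with those computed here, which settles its direction.

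The local background was the median of the 16 nearest empty spots (of 1060). Background correction used normexp with offset 50 (limma 3.58.1, R 4.3.3). Values were converted to log2, averaged over 12 spots and quantile-normalized over the 218 miRNA probes. The 138 probes detected in at least 3 of 6 samples were compared with lmFit and eBayes with a term for dye. Changes of dim probes are drawn towards 0 by the offset, and the number of arrays limits the precision. Tested on simulated data, the fit recovered most of the larger changes put in but gave more false calls than the threshold sets. The changes were put into bright probes only, so recovery for probes as dim as these members was not tested.

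Members and lists were chosen with earlier results of these data known. All 7 members, the related probes on the array and the 3 most similar probes per tested member are named. The labels do not say whether replicate numbers pair the samples, and the samples were treated as unpaired. The deviations of same-numbered samples from their group means correlated at 0.14, -0.45 and 0.37. The highest value, 0.50, was that of uninjured replicate 2 with regenerating replicate 1. Deviations within a group sum to 0, so these values constrain each other and cannot decide on pairing. Alternatives covered background, scaling, authors' values, filter, spot average, dye, blocks, eBayes trend, GC content, threshold and left-out samples. The blocks were the replicate number and a shared array, which set uninjured replicate 2 and regenerating replicate 1 apart from the rest. The labels do not say which samples shared an array, so that block is an assumption. Scaling to the 75th percentile of probes detected on all arrays, and the authors' values without dye, were added after the data were examined.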

Additional observations from a re-analysis of the deposited data

Results flagged for a closer look

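The dim skin probes miR-203a, miR-203b* and miR-205, left out of the comparison, were above the detection limit in 0 of 3 uninjured samples. For miR-203a and miR-203b*, regenerating replicate 1 was the only sample above it. How many of all probes meet this rule was not counted. Among the markers of other cells, the brain probes miR-124, miR-9, miR-9* and miR-219 and the leukocyte probes miR-142a-3p and miR-142a-5p also met it. The pattern is therefore not particular to skin probes. At most 144 probes were detected in an uninjured sample, against 217 in regenerating replicate 1. In regenerating replicate 1, where the limit was 37.2, the signal was 59.1 for miR-203a, 52.9 for miR-203b* and 67.6 for miR-205. 217 of the 218 probes counted as detected on that array, and of these signals only that of miR-205 was also above the limit of 65.9 set by the mismatched probes. miR-205 was also detected in regenerating replicate 3, at a signal of 21.3 against a limit of 17.2.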

How the results depend on the processing

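Over 28 alternatives, no member passed in 24. The count of 0 members became 4 with 75th percentile scaling, where 6.52% of all tested probes were called higher. It became 2 (miR-122 at 1.59 and miR-184 at 1.51) with 75th percentile scaling over the probes detected on all arrays (3.62% called higher). The authors' processed values gave 2 members, and these values with no dye term gave 1 (2.90% called higher in each). In these fits the 6 tested members were the only probes tested of the 13 related ones, so the counts over the related probes are the same by construction. miR-192 and miR-203b were above 0 in every alternative that tested them, at 0.32 to 2.01 and 0.32 to 1.86, while miR-122 ran from -0.063 to 1.92. Changing only the filter, dye term, blocks, eBayes trend or threshold leaves each log2 change the same by construction. The sign in those fits is therefore no further support. miR-216a turned from below to above 0 with 75th percentile (1.37, or 1.04 over probes detected on all arrays), median (0.12) and calibration spot scaling (0.18). miR-217 did so too, at 1.44, 1.11, 0.19 and 0.25, and at 0.019 with the authors' processed values with or without the dye term. miR-184 stood at -0.025 with GC correction. The causes were not tested, and the shift of the empty spots with scaling is given above as a description only. With plain background subtraction miR-216a stood at -1.18, miR-217 at -0.86 and miR-192 at 2.01, and none passed. With 1 sample left out, 0 members passed each time, where 0 to 29 of all 138 tested probes did. In these fits miR-122 ran from -0.063 to 0.89 and miR-184 from -0.078 to 0.63. The lowest value of each came from leaving out regenerating replicate 1. miR-192 ran from 0.36 to 0.70 and miR-216a from -0.25 to -0.17. With the replicate number as a block, 0 of 6 members passed, with or without the dye term. Of all 138 tested probes, 1 passed with the dye term and 9 without it. Over all tested probes the 5 calls became 0 to 29. Signal near background limits every value given for these miRNAs.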
